A study of Mus musculus with 18 samples.

Results

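The interferon-induced proteins with tetratricopeptide repeats form the IFIT family, and its mouse members Ifit1, Ifit2, Ifit3, Ifit3b and Ifit1bl1 were followed in peritoneal macrophages with or without lipopolysaccharide (LPS). These 5 genes were chosen by family name and for their basal level and LPS rise in the groups described here, so those levels are given as a description. Of the 5 genes, 4 had a value in the deposited data, and all 4 passed the filter that left 9707 of 13598 genes with a value for testing. Ifit1bl1 had no row under its own identifier in any of the 18 libraries and was not analysed here.

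RNA sequencing covered 6 groups of 3 libraries. Thioglycolate-elicited peritoneal macrophages came from C57BL/6 mice with intact Toll-like receptor 4 (TLR4-WT), or from knock-in mice made with CRISPR/Cas9. In these mice, TLR4-K730R and TLR4-K810R, the lysine in the name of the line was replaced by arginine, a residue that cannot be acetylated. It lies in the TIR domain, through which TLR4 binds its adaptor proteins. Each genotype was sampled without treatment (mock) and after LPS at 100 ng/ml for 6 h. The age and number of the mice, and whether the 3 libraries of a group came from separate mice or cultures, are not given in the sources used here, so that p-values measure only the spread between these libraries, which may be technical. Values are FPKM, fragments per kilobase of transcript scaled to the mapped fragments of the library, a scale that corrects for transcript length and total output but keeps no count, so the depth behind each value is unknown.

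IFIT proteins are made in response to type I interferon. They bind foreign RNA or the translation machinery, and IFIT1 in particular holds back mRNA whose 5′ cap lacks the methyl marks of the host cell. In macrophages, LPS acts through TLR4 along a MyD88 branch toward NF-kB and a TRIF branch toward IRF3 and interferon-beta. Secreted interferon-beta then signals through its receptor, the kinases JAK1 and TYK2, and the factor ISGF3, which contains STAT2 and IRF9. ISGF3 binds the interferon-stimulated response element (ISRE), and IRF3 can bind the same element directly. Macrophages without stimulus keep a low tonic interferon signal that sets a basal level of such genes.

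The mouse Ifit genes lie side by side on chromosome 19, between 34550694 and 34650009 of GRCm38, a stretch of 99.3 kb that holds 6 genes. Ifit2 (ENSMUSG00000045932), Ifit3 (ENSMUSG00000074896), Ifit3b (ENSMUSG00000062488) and Ifit1 (ENSMUSG00000034459) lie on the plus strand, in that order. Ifit1bl1 (ENSMUSG00000079339) and Ifit1bl2 (ENSMUSG00000067297) lie between them on the minus strand. Ifit1bl2 and Ifit1 are head to head, with 127 bases between their annotated starts.

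The promoters are shown because the members moved together and the ISRE is the element through which interferon acts on this family. The stretches below are the plus strand of the RefSeq promoter windows (GRCm38.p6), 5′ to 3′, and capitals mark each match to the ISRE core GAAANNGAA on either strand. They cover chr19:34640744-34640868 for Ifit1, chr19:34583359-34583508 for Ifit3, chr19:34607755-34607904 for Ifit3b and chr19:34550549-34550673 for Ifit2, all upstream of the annotated exons.
Ifit1: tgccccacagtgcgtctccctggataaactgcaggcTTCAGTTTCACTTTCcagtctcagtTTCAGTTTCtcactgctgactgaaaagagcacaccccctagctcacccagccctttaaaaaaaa
Ifit3: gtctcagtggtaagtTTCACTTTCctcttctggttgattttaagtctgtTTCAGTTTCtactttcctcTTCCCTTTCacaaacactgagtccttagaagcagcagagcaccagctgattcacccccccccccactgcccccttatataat
Ifit3b: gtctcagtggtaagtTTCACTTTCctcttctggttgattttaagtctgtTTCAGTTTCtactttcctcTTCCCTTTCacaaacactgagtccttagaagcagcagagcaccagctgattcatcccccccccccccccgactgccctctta
Ifit2: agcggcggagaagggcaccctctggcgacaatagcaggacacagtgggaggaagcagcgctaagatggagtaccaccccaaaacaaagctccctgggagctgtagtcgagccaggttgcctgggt

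The windows of Ifit1, Ifit3 and Ifit3b each held 3 matches, all on the minus strand. In Ifit1 they began 109, 103 and 84 bases before the RefSeq start, and the 2 upstream matches overlap each other. In Ifit3 they began 155, 121 and 102 bases before the start, and in Ifit3b 187, 153 and 134 bases before it, with the same spacing. The first 121 bases of the Ifit3 stretch recur without a change in Ifit3b. Neither RefSeq window of Ifit2 held the motif. Among all 32851 RefSeq windows of this length 8.56% held at least 1 match and 0.0639% held 3 or more.

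Other motifs were sparse in these windows, as the map of motif positions shows. The GAS element, named for interferon-gamma (TTCNNNGAA), present in 8.3% of all windows, matched in Ifit2 at 241 bases before the start. The AP-1 motif (TGANTCA), present in 7.81% of windows, matched in Ifit3 at 56 bases and in Ifit3b at 88 bases before the start. The kB motif (GGGANTTCC), present in 1.68% of windows, matched in none of the 4. A match is a string of letters and not a measured binding site.

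**Figure D1:**
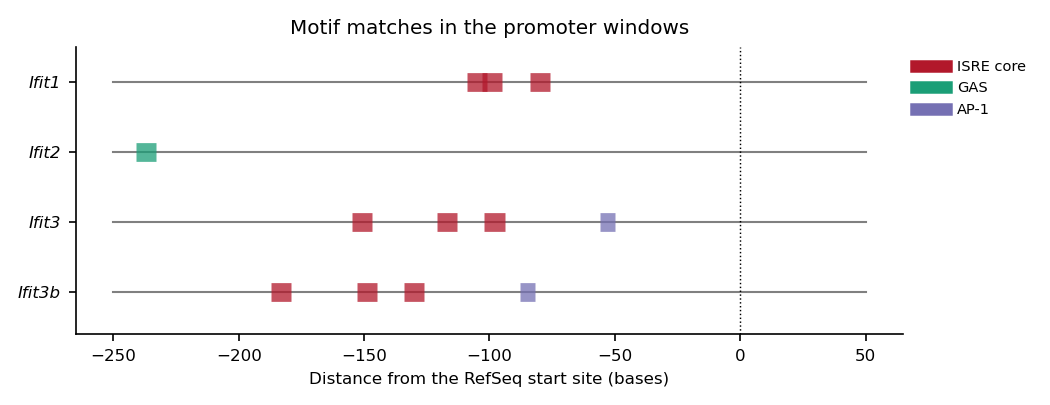
Motif matches in the RefSeq promoter windows of 4 Ifit genes, by distance in bases from the RefSeq start site (dotted line). Red bars mark the ISRE core, with 3 matches each in Ifit1, Ifit3 and Ifit3b and none in Ifit2. The green bar marks GAS and the violet bars AP-1.

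Ifit1, the member that senses incompletely methylated caps, stood at 17.2, 19.4 and 15.9 FPKM in the 3 TLR4-WT mock libraries. In mock TLR4-K730R it stood at 4.19, 4.87 and 3.47 FPKM, and in mock TLR4-K810R at 2.69, 2.66 and 2.41 FPKM. Every mutant library lay below every TLR4-WT library, and the TLR4-K810R libraries also lay below the TLR4-K730R libraries. The group means of the mutants were 23.9% and 14.8% of the TLR4-WT mean. On the log2(FPKM + 1) scale the differences from TLR4-WT were -1.84 ± 0.20 for TLR4-K730R and -2.36 ± 0.20 for TLR4-K810R (SE of the limma fit over 18 libraries).

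After LPS, Ifit1 reached 450.1, 533 and 312 FPKM for TLR4-WT, 333, 281 and 517 FPKM for TLR4-K730R and 244, 261 and 268 FPKM for TLR4-K810R. The TLR4-K730R libraries overlapped those of TLR4-WT, with replicate 2 below the lowest of them, while each TLR4-K810R library lay below every library of both other genotypes. The LPS mean was 24.7 times the mock mean for TLR4-WT, 90.3 times for TLR4-K730R and 99.6 times for TLR4-K810R. In FPKM gained, the order ran the other way, with 414 ± 64.5 for TLR4-WT, 373 ± 71.4 for TLR4-K730R and 255 ± 7.02 for TLR4-K810R (SE, n = 3 per group).

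Ifit3, whose human counterpart binds and stabilises IFIT1, was the most abundant member per length in each mock library. Its mock values were 30.0, 34.6 and 34.1 FPKM for TLR4-WT, 7.22, 6.00 and 6.01 FPKM for TLR4-K730R and 4.17, 3.91 and 3.60 FPKM for TLR4-K810R. None of the 3 groups overlapped. The log2 differences from TLR4-WT, at -2.19 ± 0.16 and -2.79 ± 0.16, had the smallest SE in the family.

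LPS brought Ifit3 to 538, 545 and 386 FPKM for TLR4-WT, 393, 344 and 552 FPKM for TLR4-K730R and 307, 313 and 324 FPKM for TLR4-K810R. As for Ifit1, TLR4-K730R overlapped TLR4-WT and TLR4-K810R lay below both. The ratio of LPS to mock means was 14.9 for TLR4-WT, 67.0 for TLR4-K730R and 80.9 for TLR4-K810R, against gains of 457 ± 51.8, 423 ± 62.7 and 311 ± 5.08 FPKM.

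Ifit2, whose product binds AU-rich RNA, had 13.1, 13.1 and 11.2 FPKM in mock TLR4-WT. It had 3.70, 3.01 and 0.811 FPKM in mock TLR4-K730R and 2.42, 0.701 and 1.83 FPKM in mock TLR4-K810R. Both mutants lay below TLR4-WT and overlapped each other, with differences of -2.05 ± 0.43 and -2.40 ± 0.43 on the log2 scale. The SE was the widest of the 4 members, and the values rest on the first exon, since the last exon of Ifit2 was listed in 2 of 18 libraries.

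After LPS, Ifit2 spread more than its neighbours. It reached 312, 226 and 121 FPKM for TLR4-WT, 110.3, 80.2 and 257 FPKM for TLR4-K730R and 107.5, 101 and 92.5 FPKM for TLR4-K810R. TLR4-K730R replicate 3 lay among the TLR4-WT values and replicates 1 and 2 below them. TLR4-K810R lay below all of TLR4-WT and overlapped TLR4-K730R. Gains of 207 ± 55.2, 147 ± 54.5 and 98.7 ± 4.38 FPKM followed the order of the basal levels.

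Ifit3b, the near copy of Ifit3, was the lowest member in every library. Its values too rest on first exons, since its last exon was listed in 1 of 18 libraries. There, in mock TLR4-WT replicate 3, the last exon stood at 0.598 FPKM and the first exons at 4.89 FPKM. Mock TLR4-WT libraries had 2.60, 7.23 and 4.89 FPKM. In mock TLR4-K730R it was at 0.952 and 0.511 FPKM and listed at 0 in replicate 2, and in mock TLR4-K810R at 0.311 and 0.67 FPKM and listed at 0 in replicate 1. A value of 0 in these files can be a failed estimate, so no ratio of LPS to mock means is given for Ifit3b in the mutants. After LPS it reached 62.4, 70.2 and 54.1 FPKM for TLR4-WT, 33.8, 43.4 and 50.1 FPKM for TLR4-K730R and 39.1, 26.8 and 28.6 FPKM for TLR4-K810R. Both mutants lay below TLR4-WT, but for TLR4-K730R this held only without first-exon rows upstream of the annotated gene: with them, replicates 1 and 3 stood at 42.7 and 63.5 FPKM and the groups overlapped.

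The split between Ifit3 and Ifit3b is uncertain. Of all 100-base windows of the GENCODE Ifit3-201 transcript (1745 bases), 31.7% recurred exactly in Ifit3b-201, and of its 50-base windows 51.2% did. Reads from such stretches cannot be told apart, and how the authors' counting shared them is not given in the sources used here. The Ifit1 and Ifit2 transcripts shared no 50-base window with each other or with Ifit3 or Ifit3b.

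**Figure D2:**
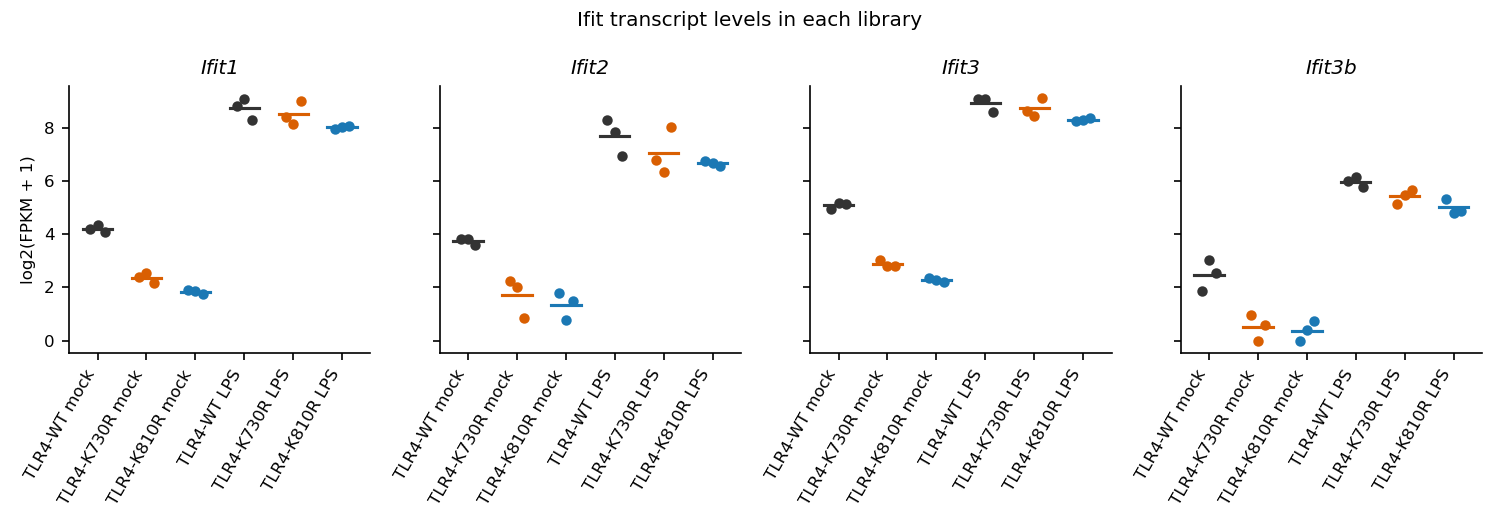
Levels of 4 Ifit genes as log2(FPKM + 1) in each of 18 libraries, by group, with points for libraries and bars for the mean of 3. The mutant mock libraries lie below the TLR4-WT mock libraries in each panel, and after LPS the groups lie much closer together.

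Across the family, the group means ran in the same order for each of the 4 genes: TLR4-WT LPS, TLR4-K730R LPS, TLR4-K810R LPS, TLR4-WT mock, TLR4-K730R mock and TLR4-K810R mock, from high to low. The neighbours that overlapped in this order were TLR4-WT LPS and TLR4-K730R LPS for Ifit1, Ifit2 and Ifit3, and the mutants, both with and without LPS, for Ifit2 and Ifit3b. With first-exon rows upstream of the annotated gene, TLR4-WT LPS and TLR4-K730R LPS overlapped for Ifit3b too. The gap between the lowest LPS library and the highest mock library was not crossed by any of the 4 genes.

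Without stimulus the median difference over the 4 members was -2.00 on the log2 scale for TLR4-K730R and -2.38 for TLR4-K810R, beside medians of 0.03 and 0.07 over all genes tested. At an adjusted p below 0.01, 3 of 4 members were called lower in TLR4-K730R, where 0.216% of all genes were, and Ifit2 was the exception. In TLR4-K810R 4 of 4 were called lower, beside 0.649% of all genes, and 2 of 4 in a fit with only the groups compared. All libraries lay below TLR4-WT for 4 of 4 members in TLR4-K730R, as for 7.45% of all genes, and for 4 of 4 in TLR4-K810R, as for 6.64%. The members were chosen with these contrasts known and both contrasts share the TLR4-WT mock libraries, so the counts describe the family and support nothing further.

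LPS raised the level of every member in every genotype. The median difference was 3.89 for TLR4-WT, 5.59 for TLR4-K730R and 5.66 for TLR4-K810R, beside medians over all genes of -0.28, -0.36 and -0.26. The 4 members were called higher in each genotype, beside 10.4%, 9.32% and 9.08% of all genes, and these counts too describe contrasts on which the family was selected. With median-of-ratios scaling, which brought the median of all genes to -0.01, -0.04 and -0.03, the family medians were 4.21, 5.97 and 5.87.

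The levels after LPS differed less between genotypes than the mock levels did. The family median was -0.38 for TLR4-K730R and -0.84 for TLR4-K810R against TLR4-WT on the log2 scale. The TLR4-K730R value ranged from -0.57 to -0.16 when 1 library was left out, and was -0.24 without TLR4-WT LPS replicate 1, -0.16 without TLR4-K730R LPS replicate 2 and -0.57 without TLR4-K730R LPS replicate 3. limma called no member lower in TLR4-K730R, where 0.0% of all genes were, and none in TLR4-K810R, where 0.0824% were. The members were chosen on their levels in these groups, so these counts are a description too. Without TLR4-WT LPS replicate 3, 1 member was called lower in TLR4-K810R. All libraries lay below TLR4-WT for 1 of 4 members in TLR4-K730R, namely Ifit3b, beside 7.54% of genes, and for 4 of 4 members in TLR4-K810R, beside 7.89%. For Ifit3b in TLR4-K730R this held only without first-exon rows upstream of the annotated gene. Summed markers of plasmacytoid dendritic cells also lay lower in LPS TLR4-K810R, at 6.45 to 10.3 FPKM. They stood at 10.9 to 16.6 FPKM in LPS TLR4-WT and 14.9 to 19.3 FPKM in LPS TLR4-K730R, with Siglech and Cox6a2 at 0 or unlisted. Of the 2 markers tested, 1 was higher and 1 lower in LPS TLR4-K810R than in LPS TLR4-WT. Both were lower than in LPS TLR4-K730R, and limma called 0 in either comparison. Summed markers of intestinal epithelium after LPS were 0.0 to 7.65 FPKM for TLR4-WT, 8.27 to 11.9 FPKM for TLR4-K730R and 0.127 to 4.74 FPKM for TLR4-K810R. Against LPS TLR4-WT, limma called 1 of 3 neutrophil markers tested higher in LPS TLR4-K810R, beside 0.0515% of all genes. Of 4 mast cell and eosinophil markers tested, 4 were lower there and 3 had an unadjusted p below 0.05, but limma called 0. The part of these marker signals in the LPS levels was not tested.

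Taken as a difference of differences, the log2 rise with LPS was larger in the mutants by a median of 1.53 for TLR4-K730R and 1.52 for TLR4-K810R. Ifit3 had the widest gap, 1.99 ± 0.23 and 2.17 ± 0.23, and was the 1 member of 4 called in each mutant, beside 0.0412% and 0.103% of all genes called higher. A fit with only the groups compared called 0 members in TLR4-K730R. The family was chosen with these contrasts known and both share the TLR4-WT libraries, so these counts are a description. On the linear scale no member gained more FPKM in a mutant than in TLR4-WT. The mutant gains were 70.8% to 92.7% of the TLR4-WT gain for TLR4-K730R and 47.7% to 68.0% for TLR4-K810R. The larger fold stands beside a lower mock level, not beside a higher level after LPS.

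**Figure D3:**
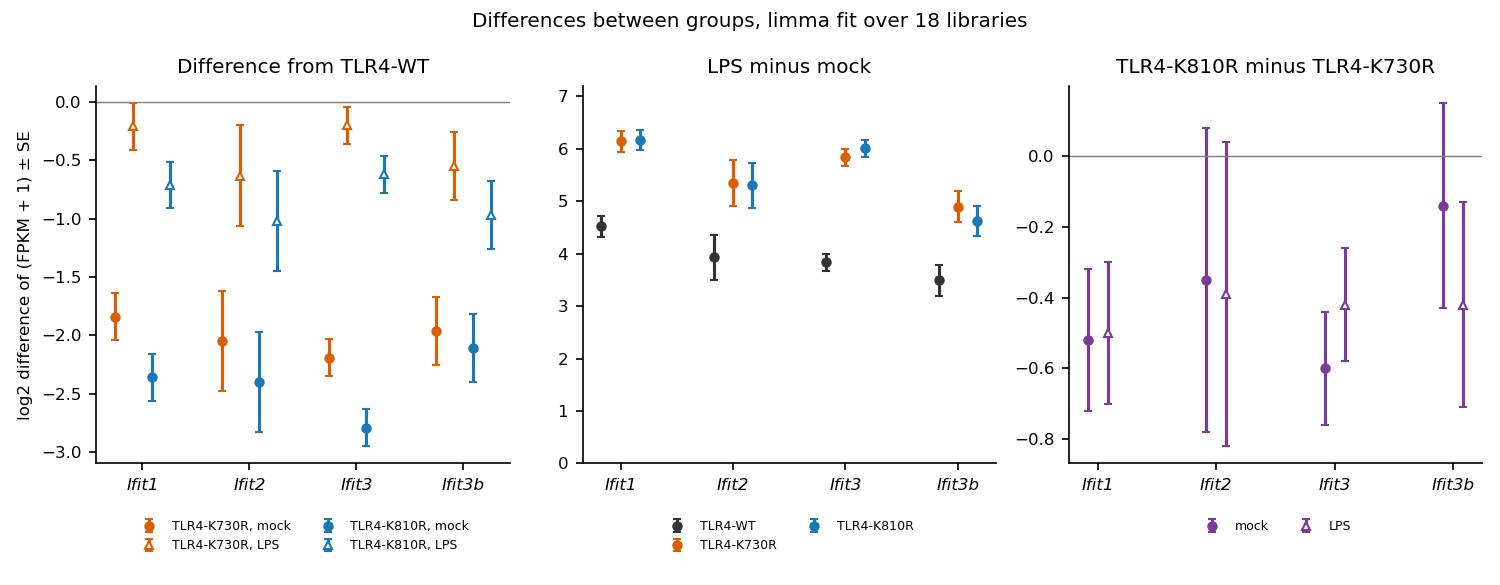
Log2 differences of (FPKM + 1) for 4 Ifit genes with the SE of the limma fit over 18 libraries, as differences from TLR4-WT (left), LPS minus mock (middle) and TLR4-K810R minus TLR4-K730R (right, on a narrower axis). Mock differences from TLR4-WT lie near -2 or below for each gene, and those after LPS lie closer to 0.

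The mutants were also compared with each other. The members were chosen on their levels in groups that include both mutants, so the p-values and intervals below are not independent of that choice. Each member had a lower mean in TLR4-K810R than in TLR4-K730R, both in mock and after LPS, but none was called by limma with Benjamini-Hochberg adjustment. The sign turned for Ifit2 after LPS without TLR4-K730R LPS replicate 3 (0.09), and for Ifit3b in mock without TLR4-K730R or TLR4-K810R mock replicate 1 (0.08 and 0.05). In mock libraries the difference was -0.52 for Ifit1 (95% interval -0.96 to -0.09, adjusted p = 0.353) and -0.60 for Ifit3 (-0.94 to -0.26, adjusted p = 0.132). It was -0.35 for Ifit2 (-1.26 to 0.56, adjusted p = 0.869) and -0.14 for Ifit3b (-0.77 to 0.48, adjusted p = 0.936), a value that includes a library listed at 0 in each mutant.

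After LPS the differences between the mutants were of like size. They were -0.50 for Ifit1 (95% interval -0.93 to -0.06, adjusted p = 0.203), -0.42 for Ifit3 (-0.76 to -0.08, adjusted p = 0.174), -0.39 for Ifit2 (-1.30 to 0.52, adjusted p = 0.668) and -0.42 for Ifit3b (-1.05 to 0.21, adjusted p = 0.465). Without TLR4-K730R LPS replicate 3 they were -0.25 for Ifit1 and -0.22 for Ifit3. The unadjusted p was below 0.05 for 2 of 4 members in each state, Ifit1 and Ifit3, whose TLR4-K810R libraries all lay below those of TLR4-K730R, and this count too rests on libraries used in choosing the family. At that unadjusted p, 347 of 9707 genes were lower and 666 higher in mock, and 316 lower and 1506 higher after LPS. Genes called lower at an adjusted p below 0.01 made up 0.0721% of all genes in mock and 0.0309% after LPS. Genes whose TLR4-K810R libraries all lay lower made up 6.04% and 4.44%, beside the 2 of 4 members. The intervals for Ifit2 reach below -1 in both states, so these values do not show that the mutants act alike.

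The members kept unequal proportions in mock and LPS libraries. The ratio of Ifit1 to Ifit3 in FPKM ranged from 0.467 to 0.812 in the 9 mock libraries, with a median of 0.58, and from 0.794 to 0.978 in the 9 LPS libraries, with a median of 0.836. The overlap came from mock TLR4-K730R replicate 2, at 0.812. The ratio of Ifit2 to Ifit3 ranged from 0.135 to 0.579 in mock, with a median of 0.436, and from 0.233 to 0.579 after LPS, with a median of 0.323. Its median moved from 0.379 to 0.413 in TLR4-WT, from 0.502 to 0.28 in TLR4-K730R and from 0.508 to 0.323 in TLR4-K810R, and the mock and LPS ranges overlapped in each genotype.

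Within groups, the members also varied together. After LPS, TLR4-K730R replicate 3 was highest and TLR4-WT replicate 3 lowest of its group for each of the 4 genes. Over the 18 libraries, deviations from the group mean had a Pearson r of 0.86 between Ifit1 and Ifit3 and 0.77 between Ifit2 and either of them, but 0.14 to 0.38 between Ifit3b and the others. These points share libraries and are given as a description.

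A splice form of Ifit3 was listed mainly after LPS. An exon of 107 bases at 34586274 to 34586380 on chromosome 19 (GRCm38 coordinates, plus strand), which overlaps no exon of GENCODE M21, began 787 bases before the start of the last exon of Ifit3. Its inclusion was not used in choosing the family, but this event was picked after its values were seen. The form with the exon made up 13.6% to 15.1% of Ifit3 FPKM in the 3 TLR4-WT LPS libraries, 13.5% to 16.7% for TLR4-K730R and 12.6% to 13.7% for TLR4-K810R. After LPS the 3 genotypes overlapped in this share, TLR4-K810R and TLR4-WT only in the values 13.7% and 13.6%. In Ifit3 level after LPS, TLR4-K810R lay below both other genotypes.

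Among mock libraries the exon was listed in 2 of 9, at 13.6% in TLR4-WT replicate 3 and 15.2% in TLR4-K810R replicate 3, in the latter joined to a last exon that starts 4 bases further on. In the other mock libraries it was not listed. The mock libraries that list it have shares like those after LPS, and whether a form that is not listed was absent was not tested. In Ifit3b, a first exon of 129 bases that also overlaps no GENCODE exon was listed at 16.4 FPKM in TLR4-WT LPS replicate 1 and at 10.3 FPKM in TLR4-K730R LPS replicate 2, and it began 785 bases before the last exon, near the matching place.

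**Figure D4:**
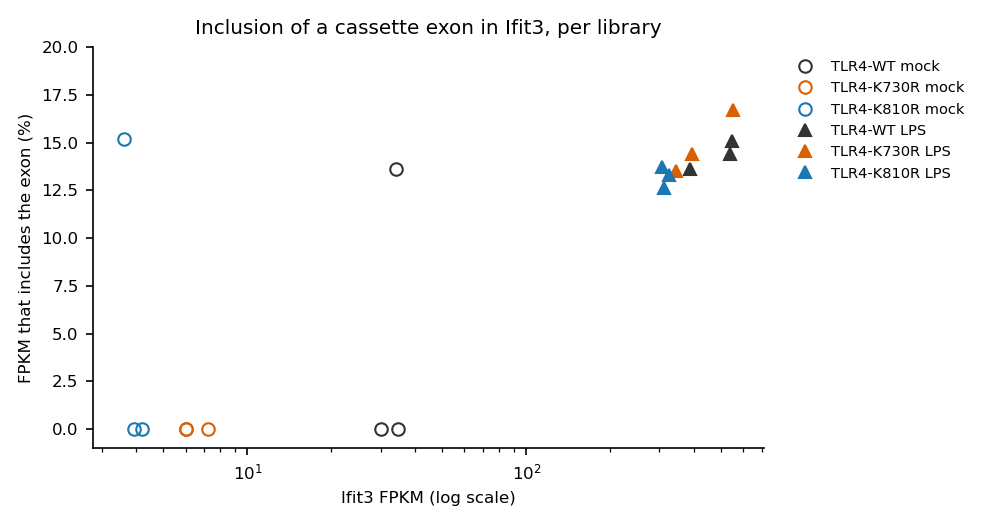
Share of Ifit3 FPKM from transcripts that include the 107-base exon (%) against the Ifit3 level in FPKM (log axis), 1 point per library. The 9 LPS libraries sit between 12.6% and 16.7%, and 7 of 9 mock libraries are at 0.

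Ifit1bl2, the neighbour that faces Ifit1 across the shared promoter stretch, stayed far lower. It was listed at 0 in the 9 mock libraries and in TLR4-WT LPS replicate 2. In the other LPS libraries it stood at 2.61 and 2.81 FPKM for TLR4-WT, 0.746, 0.848 and 1.43 FPKM for TLR4-K730R and 1.89 to 2.02 FPKM in the 3 libraries of TLR4-K810R. The promoter stretch with 3 ISRE matches is common to both genes, and Ifit1 stood at 244 FPKM or more in each LPS library.

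The genes whose pattern over the 18 libraries was most like that of the 4 members were Usp18, Mx1, Phf11d, Oasl1, Rsad2, Cmpk2, Zbp1, Parp12, Rnf213 and Adar. Their Pearson r with the mean standardised profile of the members ranged from 0.991 to 0.997, a value carried largely by the contrast of LPS with mock. Within the 9 mock libraries r was 0.93 to 0.99, and within the 9 LPS libraries 0.71 to 0.99, with Zbp1 and Rnf213 at the low end. Rsad2, which encodes viperin, followed the members most closely in both, at 0.99 and 0.99. Its mock mean was 19.5 ± 2.27 FPKM for TLR4-WT, 6.19 ± 0.504 FPKM for TLR4-K730R and 4.41 ± 0.281 FPKM for TLR4-K810R (SD, n = 3).

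Other interferon-stimulated antiviral genes leaned the same way. Of 47 genes in this list 41 were tested, and in mock TLR4-K730R 10 were called lower, with a median of -0.85. In mock TLR4-K810R 19 were called lower, with a median of -0.92. Leaving out any 1 of the 6 libraries compared brought these counts to between 4 and 7 for TLR4-K730R and to 11 or 12 for TLR4-K810R. The largest falls called in TLR4-K730R were Oas3, an activator of RNase L (-2.01 ± 0.18), Ifi27l2a (-2.00 ± 0.32) and Mx1 (-1.82 ± 0.29). In TLR4-K810R they were Ifi27l2a (-2.63 ± 0.32), Oas3 (-2.56 ± 0.18) and, level with each other, Oas2 (-2.20 ± 0.24) and Oasl1 (-2.20 ± 0.23).

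The same list rose with LPS in each genotype. In TLR4-WT 36 of 41 were called higher (median 2.31), in TLR4-K730R 40 (median 2.97) and in TLR4-K810R 39 (median 3.16). Isg20, an RNA exonuclease, rose by 5.85 ± 0.35 in TLR4-WT and Mx1 by 6.35 ± 0.29 in TLR4-K810R and 6.73 ± 0.29 in TLR4-K730R. In the LPS levels no gene of this list was called by limma between either mutant and TLR4-WT. An unadjusted p below 0.05 was found for 6 of 41 in TLR4-K730R and 21 in TLR4-K810R. Of all 9707 genes, 520 were lower and 226 higher at that p in TLR4-K730R, and 647 lower and 1471 higher in TLR4-K810R. Without TLR4-WT LPS replicate 3, 6 genes of the list were called lower in TLR4-K810R. The log2 rise was called larger in both mutants for Oas3 (2.11 ± 0.25 and 2.39 ± 0.25) and Zbp1, a sensor of Z-form nucleic acid (1.65 ± 0.15 and 1.39 ± 0.15). Without TLR4-WT mock replicate 2, 5 were called in TLR4-K810R in place of 2. Isg15, which encodes a ubiquitin-like modifier, was listed at 0 in every mock library, in the 3 LPS libraries of TLR4-K730R and in 1 LPS library each of TLR4-WT and TLR4-K810R, so no fold of it is given. It is among the 41 genes tested and among the 6 with an unadjusted p below 0.05 in LPS TLR4-K730R.

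**Figure D5:**
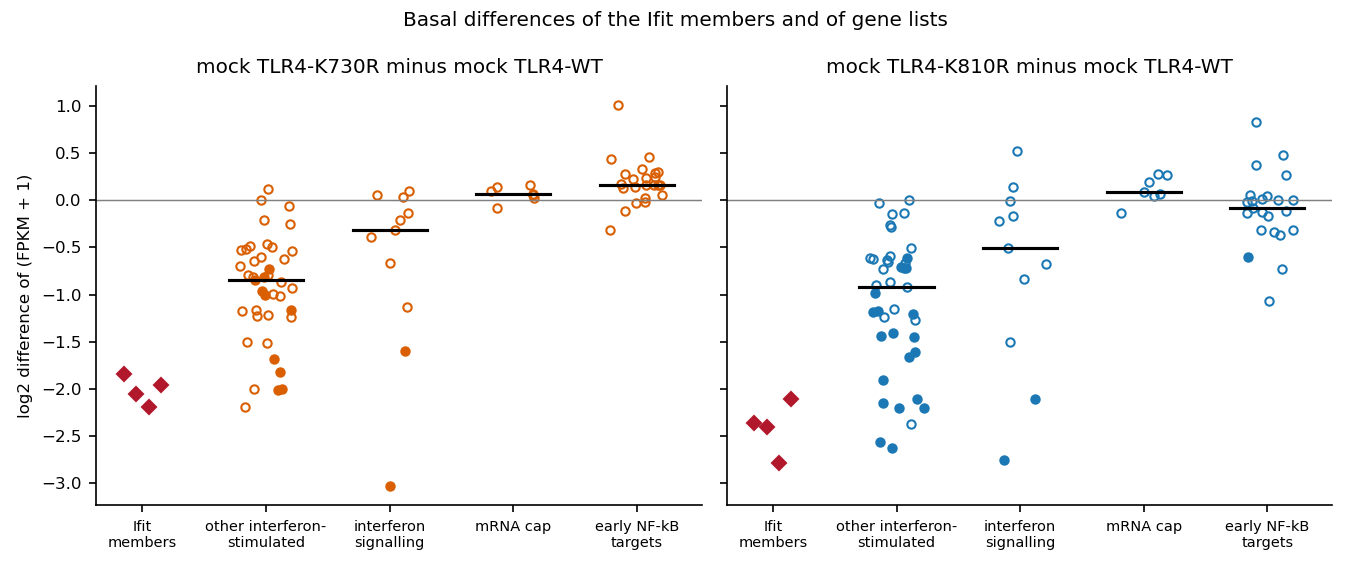
Mock differences from TLR4-WT on the log2(FPKM + 1) scale for the 4 Ifit members (diamonds) and for the genes of 4 lists, in TLR4-K730R (left) and TLR4-K810R (right). Filled circles passed an adjusted p below 0.01, open circles did not, and bars are list medians. The interferon-stimulated list has medians of -0.85 and -0.92, and the early NF-kB targets have medians of 0.16 and -0.08.

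In the interferon signalling list, 11 of 14 genes were tested and 2 were called lower in mock cells of each mutant. A fit with only the groups compared called 0 of them in TLR4-K730R and 1 in TLR4-K810R. Irf7, the factor that amplifies interferon production, had a mock mean of 110.3 ± 33.0 FPKM for TLR4-WT, 14.8 ± 12.1 FPKM for TLR4-K730R and 15.2 ± 2.75 FPKM for TLR4-K810R (SD, n = 3), which on the log2 scale was -3.03 ± 0.36 and -2.75 ± 0.36 (SE). Usp18, which restrains the receptor, was lower by -1.60 ± 0.18 and -2.11 ± 0.18. Differences that were not called included Stat2 (-1.13 ± 0.20 and -0.83 ± 0.20) and Irf9 (-0.67 ± 0.15 and -0.51 ± 0.15). The receptor chain Ifnar1 (0.10 ± 0.15 and -0.17 ± 0.15), Irf3 (0.06 ± 0.21 and 0.14 ± 0.21) and Jak1 (0.03 ± 0.08 and -0.01 ± 0.08) lay near 0. Of the others not called, Tyk2 stood at -0.21 ± 0.19 and -0.68 ± 0.19, Irf1 at -0.31 ± 0.26 and 0.52 ± 0.26, and Irf5 at -0.13 ± 0.13 and -0.22 ± 0.13.

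With LPS, 7 genes of the signalling list were called higher for TLR4-WT, 6 for TLR4-K730R and 7 for TLR4-K810R. Irf7 rose by 2.95 ± 0.36, 5.95 ± 0.36 and 5.47 ± 0.36, Stat2 by 2.44 ± 0.20, 3.21 ± 0.20 and 2.58 ± 0.20, and Irf9 by 0.61 ± 0.15, 1.48 ± 0.15 and 1.36 ± 0.15, in the order TLR4-WT, TLR4-K730R and TLR4-K810R. Jak1 was called lower in TLR4-K730R (-0.34 ± 0.08), but not without TLR4-K730R mock replicate 1, and the median over all genes in that contrast was -0.36. Of the 17 type I interferon genes 1 had a value and 0 passed the filter, so the ligand was not tested.

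The mRNA cap is what IFIT1 reads, and 7 of 8 genes that build or methylate it were tested. None was called in mock cells of either mutant, and limma gave 0 of 7 an unadjusted p below 0.05 in each. Cmtr1, which adds the methyl mark that hides host mRNA from IFIT1, rose with LPS by 1.38 ± 0.12 for TLR4-WT, 1.30 ± 0.12 for TLR4-K730R and 1.06 ± 0.12 for TLR4-K810R. Ncbp1 and Ncbp2, which bind the cap in the nucleus, fell in TLR4-WT (-0.51 ± 0.15 and -0.66 ± 0.19) and TLR4-K730R (-0.65 ± 0.15 and -0.90 ± 0.19), where the medians over all genes were -0.28 and -0.36. In TLR4-K810R their differences, -0.33 ± 0.15 and -0.40 ± 0.19, were not called.

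The early NF-kB targets, on the other branch below TLR4, had mock medians close to 0. Of 23 tested genes limma called none in mock TLR4-K730R, with 4 at an unadjusted p below 0.05, and 1 lower in mock TLR4-K810R, Icam1 (-0.60 ± 0.10), with medians of 0.16 and -0.08. With LPS 23, 22 and 23 of them were called higher in TLR4-WT, TLR4-K730R and TLR4-K810R. Tlr4 itself stood at 9.31 to 14.2 FPKM in the mock libraries and 4.18 to 5.72 FPKM after LPS, with the genotypes overlapping in each state.

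Macrophage markers had a summed level of 11633 to 14785 FPKM in the mock libraries, with 7 of 8 listed and Itgam not listed, and limma called none of 6 tested between mock mutants and TLR4-WT, with 1 and 2 at an unadjusted p below 0.05. In bulk RNA, fewer cells of a type and less RNA per cell cannot be told apart. Markers of intestinal epithelium moved with the basal difference: 7 of 8 had a value, Cdx2 was at 0 or unlisted, and their sum was 0.118 to 0.594 FPKM in mock TLR4-WT, 6.56 to 33.5 FPKM in mock TLR4-K730R and 10.3 to 50.6 FPKM in mock TLR4-K810R. Of 3 tested, limma called 0 in TLR4-K730R and 1, Fabp1, higher in TLR4-K810R, with 3 of 3 at an unadjusted p below 0.05 and medians of 2.67 and 2.66. Fabp1 is named because it was called, after its value was seen. Summed markers of plasmacytoid dendritic cells overlapped between the mock genotypes, at 5.25 to 7.35, 4.41 to 9.13 and 4.77 to 10.4 FPKM.

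Other marker sums also differed between the mock genotypes. Mesothelial markers summed to 2.7 to 3.74 FPKM in mock TLR4-WT, 3.82 to 7.16 FPKM in mock TLR4-K730R and 8.09 to 24.7 FPKM in mock TLR4-K810R, and limma called 0 of 4 tested in either mutant, with 1 and 4 at an unadjusted p below 0.05. Neutrophil markers summed to 24.6 to 35.2, 34.6 to 40.7 and 36.9 to 47.3 FPKM in the same order, while of 3 tested 1, Retnlg, likewise named after its value was seen, was called lower in TLR4-K730R and limma called 0 in TLR4-K810R, with 2 and 3 at an unadjusted p below 0.05. Sums of mast cell and eosinophil markers were 4.55 to 5.87, 2.59 to 3.24 and 0.999 to 4.53 FPKM, with Prg2 and Epx at 0 or unlisted. B cell markers, with Pax5 at 0 or unlisted, summed to 2.30 to 3.66, 1.46 to 2.28 and 1.65 to 2.85 FPKM, and T cell markers to 0.703 FPKM or less in each mock library. With LPS, neutrophil marker sums stood at 167.5 to 239.2 FPKM over the 9 libraries and 1 of 3 tested was called higher in each genotype and 1 lower in TLR4-WT, while macrophage marker sums stood at 7289 to 10057 FPKM. The part of these marker signals in the Ifit differences was not tested.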

How the data were processed

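RNA was sequenced on an Illumina platform by a service provider from 18 libraries. The authors deposited, for each library, FPKM values of transcript events (first exons, last exons, skipped exons and others of 20 kinds), each with a mouse Ensembl identifier. The aligner, assembler and annotation are not given in the sources used here. The submitters' processing notes name the build hg18, a human build, whereas exon bounds match mouse GRCm38 (GENCODE M21), to which 14126 of 14138 identifiers matched. Gene values were the larger of the summed first-exon and the summed last-exon FPKM, from rows that lie on the same strand and inside the annotated bounds of their gene (5.99% of end-exon FPKM did not). FPKM holds no counts, so no counting interval is given.

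limma 3.58.1 (R 4.3.3, eBayes with trend) was fitted to log2(FPKM + 1) of 9707 genes that reached 1 FPKM in 3 or more libraries, with the 6 groups as terms, over all 18 libraries. Benjamini-Hochberg adjustment ran over all genes tested, and a gene was called at an adjusted p below 0.01. Fold changes on this scale understate the change of low genes. The fit was tested on simulated data first. Replicate numbers did not pair the samples (45 same-number pairs, r from -0.32 to 0.0993).

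The members and lists were chosen with earlier results of these data known, so comparisons with TLR4-WT and of LPS with mock carry no p for members, only counts of calls, and the p-values between the mutants are not independent of the choice. Named genes were the members, Tlr4, Ifit1bl2, up to 3 called genes per list and direction, the signalling and cap lists, and the 10 genes most like the members. A gene of the signalling list is not reported here by name. Tables of Python 3.11.15 (pandas 2.3.3) gave the remaining values. Promoter sequences came from RefSeq (GRCm38.p6), where all 4 members with values matched. A test of first-exon shares could not be run, since it set LPS against mock and no member had 2 first-exon events at 1 FPKM in every library of both. Alternatives changed the pseudocount, filter, scaling, block, libraries, trend, gene value, rows and threshold.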

Additional observations from a re-analysis of the deposited data

Results flagged for a closer look

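Ifit3 differed between genotypes in its log2 rise with LPS: the rise was larger than in TLR4-WT by 1.99 ± 0.23 in TLR4-K730R and by 2.17 ± 0.23 in TLR4-K810R (SE of the limma interaction term). The family was chosen with this contrast known, both values share the TLR4-WT libraries, and in FPKM the gain was 423 and 311 in the mutants against 457 in TLR4-WT.

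Last-exon rows that carry the identifier of Ifit1bl2 lay inside Ifit1bl1 in 2 libraries, at 0.736 FPKM in TLR4-K810R LPS replicate 1 and 0.987 FPKM in TLR4-K810R LPS replicate 3. No mock library listed such a row. These rows entered no gene value.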

How the results depend on the processing

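The median log2 difference over the 4 members kept its direction in each of the 11 comparisons under each alternative run, and moved by less than the pooled spread between replicates (0.40) under all but 2 of them. A pseudocount of 0.1 gave mock medians of -2.42 (TLR4-K730R) and -3.02 (TLR4-K810R), LPS rises of 6.22 and 6.44, and response differences of 2.01 and 2.21. With last-exon FPKM alone, which left only Ifit1 and Ifit3, the LPS rises in the mutants were 6.01 and 6.09. In the replicate block fit the family medians were -2.00 and -2.38 in mock cells, equal to those without it, and the numbers did not pair the samples. Under the block, 4 of 41 interferon-stimulated genes were called lower in mock TLR4-K730R and 1 signalling gene was called lower with LPS in TLR4-WT.

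Counts of calls moved more. Interferon-stimulated genes called lower in mock TLR4-K730R (10 as reported) numbered 6 with no filter, with median-of-ratios scaling, with last-exon FPKM or with only the groups compared. In mock TLR4-K810R (19 as reported) they numbered 11 with last-exon FPKM and 9 with only the groups compared. At an adjusted p below 0.05, 2 of them were called lower in LPS TLR4-K810R than in LPS TLR4-WT, and 6 had a larger rise in TLR4-K810R. The count with a larger rise (2 as reported) was 1 with first-exon or last-exon FPKM in either mutant, and 1 with only the groups compared in TLR4-K730R. Signalling genes called lower in mock cells (2 as reported) numbered 0 in TLR4-K730R and 1 in TLR4-K810R with only the groups compared. Signalling genes called lower with LPS numbered 1 in TLR4-WT at an adjusted p below 0.05, and in TLR4-K730R (Jak1 as reported) 0 with median-of-ratios scaling, last-exon FPKM or only the groups compared. With last-exon FPKM 4 were called higher with LPS in TLR4-K810R. A larger rise was called for 2 signalling genes in either mutant at an adjusted p below 0.05, and in TLR4-K810R for 1 with a pseudocount of 0.1 or only the groups compared. The causes were not tested.

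Leaving out 1 library at a time, interferon-stimulated genes called lower ranged from 4 to 7 in mock TLR4-K730R and from 11 to 12 in mock TLR4-K810R, from 0 to 6 between LPS TLR4-K810R and LPS TLR4-WT (6 without TLR4-WT LPS replicate 3), and those with a larger rise in TLR4-K810R from 2 to 5 (5 without TLR4-WT mock replicate 2). Signalling genes ranged from 0 to 1 for a fall with LPS in TLR4-K730R (0 without TLR4-K730R mock replicate 1), for a lower LPS level in TLR4-K810R (1 without TLR4-WT LPS replicate 3) and for a larger rise in TLR4-K730R (1 without TLR4-K730R mock replicate 3). Members called lower in mock cells ranged from 2 to 4 for either mutant over all alternatives. With last-exon FPKM only Ifit1 and Ifit3 were left to be called. No member was called between the mutants under any alternative, with adjusted p from 0.0894 to 0.992. Between mutants the sign changed only when 1 library was left out: Ifit3b in mock ranged from -0.40 to 0.08 and Ifit2 after LPS from -0.74 to 0.09. The number of libraries, 3 a group, and the missing counts limit what these values can resolve. Over all alternatives, all genes called lower and higher ranged from 10 to 40 (21 as reported) and from 0 to 11 (5) in mock TLR4-K730R, and from 19 to 116 (63) and from 8 to 226 (90) in mock TLR4-K810R. In LPS TLR4-K810R against TLR4-WT they ranged from 0 to 86 (8) and from 0 to 198 (5), both highest without TLR4-WT LPS replicate 3. Between the mutants they ranged from 0 to 22 (7) and 0 to 23 (1) in mock, and from 0 to 23 (3) and 0 to 95 (3) after LPS. Genes called lower with LPS ranged from 1368 to 3278 (2316) in TLR4-WT, 1299 to 3587 (2568) in TLR4-K730R and 1125 to 2789 (1916) in TLR4-K810R. Those called higher with LPS ranged from 745 to 1494 (1012), 691 to 1496 (905) and 644 to 1196 (881) in the same order. Larger rises ranged from 2 to 7 (4) in TLR4-K730R and 5 to 36 (10) in TLR4-K810R, and smaller rises in the latter from 1 to 21 (2).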
